A study of Mus musculus with 8 samples.

Results

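The glycolysis enzymes described here are 10 genes whose products carry glucose to lactate: *Hk2*, *Gpi1*, *Pfkl*, *Pfkm*, *Aldoa*, *Pgk1*, *Pgam1*, *Eno1*, *Pkm* and *Ldha*. They were taken by gene name, by a rule that sets no limit on measured values, from the 54532 genes counted in mouse retina. *Aldoa* stands in the counts under a pair of identifiers, and the one with more counts was taken. All 10 were found and all 10 passed the filter on low counts, their lowest count in any sample being 275.

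Bulk RNA-seq compared whole retinas of 4 *Mettl3*-CKO and 4 control samples. *Mettl3*-CKO retinas were from *Six3-Cre*+; *Mettl3* floxed/floxed mice, in which Cre from the *Six3* promoter removes *Mettl3*, the catalytic core of the m6A-writer complex, from retinal progenitor cells (RPCs). The controls are labelled as control with no alleles given, and the study describes control pups of its other assays as littermates. The age is postnatal day 7 in the sample labels, whereas the methods give a day earlier. Immunostaining in the study placed the loss of METTL3 in the central retina, so the peripheral retina and any cells that do not descend from Six3-expressing progenitors, such as blood vessels, may keep the gene. Nothing says whether 1 sample is 1 pup, so the p-values measure the spread between these samples.

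Total counts were between 16227095 and 20281517 per sample, and 3 counts correspond to 0.148 to 0.185 CPM, counts scaled to the library total. Levels are given as CPM after TMM scaling, which removes differences in library composition, and comparisons between genes as FPKM, which also divides by gene length. *Mettl3* itself was at 29.3 to 33.8 CPM in the controls and 21.1 to 29.6 CPM in the *Mettl3*-CKO samples, a log2 fold change of -0.38 that did not pass the threshold (adjusted p = 0.0602, edgeR quasi-likelihood test). Which exons the floxed allele removes was not used here, so counts over the whole gene check the labels only in part. A pair of controls stood apart. Control replicate 4 held 5190 CPM of 14 summed lens genes against at most 95.4 CPM in any other sample, and control replicate 1 had the highest summed level of rod markers. The comparisons were repeated without both.

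Glycolysis splits glucose into pyruvate in the cytosol, with early steps that spend ATP and later steps that return it, and lactate dehydrogenase then reduces pyruvate to lactate and renews NAD+. The retina is known for making lactate from glucose even when oxygen is plentiful, a habit shared with proliferating cells and attributed largely to photoreceptors. Most steps have several isozymes, and *Hk2*, *Aldoa*, *Pkm* and *Ldha* are those usually linked with this aerobic glycolysis.

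Across the route, *Mettl3*-CKO retinas held less aldolase RNA and otherwise little that passed a test. *Aldoa*, which cleaves fructose 1,6-bisphosphate into a pair of three-carbon sugars, fell by 27.0%. That call lay close to the threshold (adjusted p = 0.0446, edgeR) and was kept in only 2 of the 8 fits that left out 1 sample. None of the 10 enzymes rose, and 1 of 10 fell at an adjusted p-value under 0.05, against a background of 6.49% of the 17998 genes tested called higher and 4.05% called lower. By unadjusted p-value under 0.05, 0 of the 10 were higher and 2 lower, beside 13.5% and 11.1% of all genes. DESeq2 called 0 higher and 2 lower, beside 8.38% and 5.79% of all genes. The result of limma voom was also 0 and 2, beside 11.9% and 8.71%, *Ldha* being the second gene in both. In 3 of the 10 (*Aldoa*, *Pgk1* and *Ldha*) all *Mettl3*-CKO samples lay below all controls, where 17.4% of all genes had groups that do not overlap, 7.58% with the *Mettl3*-CKO samples lower. The fitted level was lower in *Mettl3*-CKO retinas for 7 of the 10, beside 51.8% of all genes tested, and the median log2 fold change was -0.10 beside -0.01 over all genes.

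**Figure D1:**
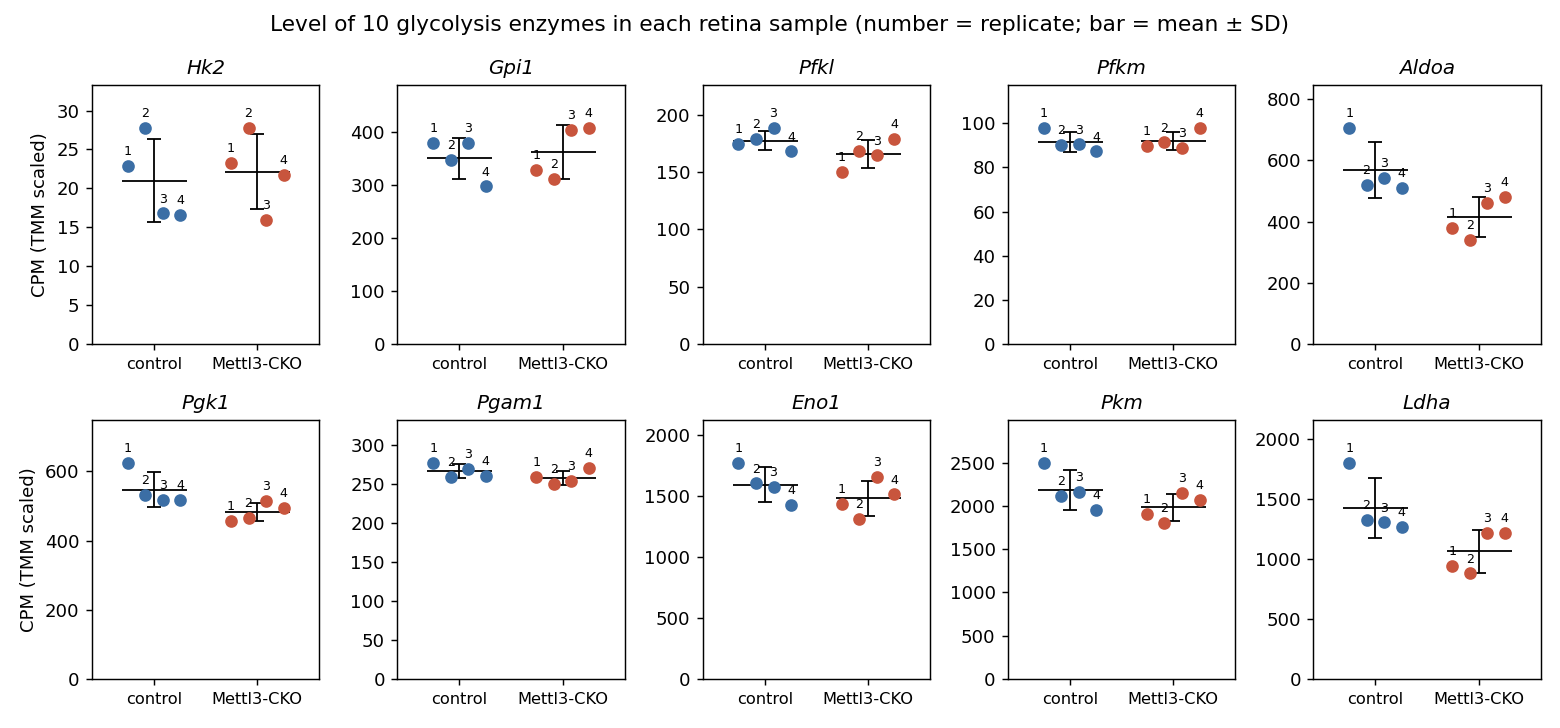
Level of each of the 10 enzymes (CPM after TMM scaling, linear axes from 0) in the 4 control (blue) and 4 Mettl3-CKO (red) samples, numbered by replicate, with the mean and SD of each group as bars. For Aldoa, Pgk1 and Ldha every red point lies below every blue point, and the highest blue point is replicate 1; for the other 7 enzymes the groups overlap.

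The promoter sequences of the genes on which the results turn are shown for the sites at which hypoxia-inducible factors are known to bind. Their core is ACGTG or GCGTG, searched on both strands in the 250 bases before each RefSeq transcription start (GRCm38.p6). CACGTG, the E-box read by MYC and by other factors, contains ACGTG on both strands, so such a match cannot be assigned to either family. At least 1 core stood before some start in 9 of the 10 enzymes, *Gpi1* being the exception, and in 41.5% of 27025 genes; ACGTG alone stood in 7 of 10 and in 18.5% of genes. Genes with several annotated starts have more bases searched: by window, 15 of the 19 windows of the 10 enzymes and 38.6% of 32851 windows held a core. A match is a string of letters and does not show that a factor binds there.

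Capitals mark the cores on either strand, and each sequence runs 5′ to 3′ on the strand of its gene. *Ldha* and *Aldoc* have 2 RefSeq starts each, and the window of the upstream one is shown. The *Ldha* window lies at chr7:46845554-46845803 (plus strand) and holds 3 stretches in capitals. *Aldoa* has 3 RefSeq starts, of which the outermost are shown: the farthest upstream window is at chr7:126800448-126800697 (minus strand) and holds 0 cores, and the farthest downstream at chr7:126799179-126799428 holds 1. Windows of a gene that fell more than *Aldoa* and of one that rose, both described later, are given beside them: *Aldoc* at chr11:78322823-78323072 (plus strand) with 1 core, and *Slc16a1* at chr3:104638414-104638663 (plus strand) with 3 stretches in capitals. Among these chosen windows, cores stood before genes that rose, that fell and that did not pass the test. Any relation between cores and change was not tested.
Ldha: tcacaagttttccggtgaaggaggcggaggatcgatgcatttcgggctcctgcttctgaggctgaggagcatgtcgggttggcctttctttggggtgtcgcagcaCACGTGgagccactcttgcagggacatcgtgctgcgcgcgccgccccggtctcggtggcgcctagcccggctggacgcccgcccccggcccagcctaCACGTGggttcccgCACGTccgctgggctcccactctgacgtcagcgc
Aldoa, upstream start: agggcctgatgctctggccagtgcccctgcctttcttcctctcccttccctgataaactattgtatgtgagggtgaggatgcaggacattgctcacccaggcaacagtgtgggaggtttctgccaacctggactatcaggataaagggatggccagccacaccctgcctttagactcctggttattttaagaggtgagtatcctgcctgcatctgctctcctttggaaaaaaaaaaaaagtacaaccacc
Aldoa, downstream start: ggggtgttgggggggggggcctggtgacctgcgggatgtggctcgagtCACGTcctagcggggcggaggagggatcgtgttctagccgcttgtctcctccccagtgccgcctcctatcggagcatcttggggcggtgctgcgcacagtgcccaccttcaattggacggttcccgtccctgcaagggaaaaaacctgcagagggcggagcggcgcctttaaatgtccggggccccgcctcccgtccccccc
Aldoc: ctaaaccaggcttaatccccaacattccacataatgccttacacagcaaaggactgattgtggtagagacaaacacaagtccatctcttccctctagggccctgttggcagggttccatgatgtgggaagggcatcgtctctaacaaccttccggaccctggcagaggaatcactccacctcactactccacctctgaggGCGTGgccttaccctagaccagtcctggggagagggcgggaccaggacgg
Slc16a1: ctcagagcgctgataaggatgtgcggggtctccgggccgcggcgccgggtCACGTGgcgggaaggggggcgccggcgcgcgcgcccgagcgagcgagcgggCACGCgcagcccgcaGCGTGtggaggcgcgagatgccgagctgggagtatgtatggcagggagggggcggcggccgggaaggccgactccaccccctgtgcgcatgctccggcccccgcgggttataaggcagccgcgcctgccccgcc

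The route begins with hexokinase, which phosphorylates glucose and so holds it in the cell. *Hk2* (ENSMUSG00000000628, chromosome 6, 82725025 to 82774454, minus strand) was at 22.9, 27.7, 16.8 and 16.6 CPM in control replicates 1 to 4 and at 23.2, 27.7, 15.99 and 21.7 CPM in *Mettl3*-CKO replicates 1 to 4. The groups interleaved fully, and the log2 fold change was 0.08 (95% confidence interval -0.33 to 0.48, adjusted p = 0.852, edgeR). It was the lowest of the 10 enzymes per gene length, at 3.52 ± 0.897 FPKM in controls and 3.71 ± 0.811 FPKM in *Mettl3*-CKO retinas (SD, n = 4). Other hexokinase genes stood above it: *Hk1*, the general neuronal form, at 17.6 FPKM and *Hkdc1*, a hexokinase domain protein, at 37.2 FPKM in controls. *Hkdc1* was downregulated, from 178, 210.02, 190.6 and 186 CPM in controls to 145, 169, 122 and 135 CPM (log2 fold change -0.42, adjusted p = 0.0207, edgeR), with no overlap. That call was lost without control replicate 2 or *Mettl3*-CKO replicate 1, 3 or 4, with adjusted p-values of up to 0.0735. *Hk1* gave -0.17 (adjusted p = 0.261).

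Glucose-6-phosphate isomerase (*Gpi1*, ENSMUSG00000036427, chromosome 7, 34201330 to 34230336, minus strand) turns glucose 6-phosphate into fructose 6-phosphate. It was at 379, 347, 379.5 and 298 CPM in control replicates 1 to 4 and at 328, 311, 404 and 407 CPM in *Mettl3*-CKO replicates 1 to 4. *Mettl3*-CKO replicates 3 and 4 were the highest of the 8 samples and control replicate 4 the lowest, and the log2 fold change was 0.05 (95% confidence interval -0.20 to 0.29, adjusted p = 0.844, edgeR).

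Phosphofructokinase, the committed step and the main point of control, is a tetramer of liver, muscle and platelet subunits. *Pfkl* (ENSMUSG00000020277, chromosome 10, 77986947 to 78010083, minus strand) ranged from 168 to 188 CPM in controls and from 149.9 to 179 CPM in *Mettl3*-CKO retinas (log2 fold change -0.10, 95% confidence interval -0.27 to 0.07, adjusted p = 0.493). *Pfkm* (ENSMUSG00000033065, chromosome 15, 98092589 to 98132451, plus strand) ranged from 87.3 to 97.7 and from 88.9 to 97.8 CPM (log2 fold change 0.01, 95% confidence interval -0.16 to 0.18, adjusted p = 0.962, edgeR). Both subunits thus overlapped between groups. *Pfkp*, the platelet subunit, was the most abundant of the 3 at 53.1 FPKM in controls, above *Pfkm* at 27.4 and *Pfkl* at 26.6 FPKM, and gave -0.21 (adjusted p = 0.272). The last pair did not differ beyond its spread, since *Pfkm* spanned 26.1 to 29.3 FPKM and *Pfkl* 25.2 to 28.2 FPKM in controls.

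*Aldoa* (ENSMUSG00000030695, chromosome 7, 126795234 to 126800751, minus strand) is the aldolase of muscle and of most growing tissues. It stood at 705, 520.3, 543 and 510.2 CPM in control replicates 1 to 4 and at 380.3, 340.4, 461 and 481 CPM in *Mettl3*-CKO replicates 1 to 4. All *Mettl3*-CKO samples were below all controls, *Mettl3*-CKO replicate 4 and control replicate 4 being the nearest pair across the groups. The control mean was 569.6 ± 91.4 CPM and the *Mettl3*-CKO mean 416 ± 66.4 CPM (SD, n = 4). edgeR gave a log2 fold change of -0.45 with a standard error of 0.13, a 95% confidence interval of -0.74 to -0.17 and an adjusted p of 0.0446. The call lies close to the threshold. It was kept without control replicate 1 (-0.33, adjusted p = 0.0381) and without *Mettl3*-CKO replicate 4. It was lost without each of control replicates 2, 3 and 4 and *Mettl3*-CKO replicates 1, 2 and 3, with adjusted p-values of 0.0539 to 0.157, and without control replicates 1 and 4 together (-0.36, adjusted p = 0.0794). The estimate stayed between -0.53 and -0.33 in all 8 fits that left out 1 sample. A second identifier under the name *Aldoa*, 799 bases long and just upstream at 126800790 to 126809108, was at 5.19 to 8.69 CPM and gave 0.00 (adjusted p = 0.991).

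*Aldoc*, the aldolase known from brain and glia, is not one of the 10 but showed the larger difference. It was at 54.1, 27.9, 26.1 and 31.6 CPM in control replicates 1 to 4 and at 15.6, 10.4, 17.1 and 19.7 CPM in *Mettl3*-CKO replicates 1 to 4. The groups did not overlap, control replicate 1 being far above the rest, and *Aldoc* was downregulated by a log2 value of -1.15 with a standard error of 0.23 (adjusted p = 0.00913, edgeR). Without control replicate 1 the value was -0.86 (adjusted p = 0.00219), and the call was kept in all 8 fits that left out 1 sample. Per gene length *Aldoa* was nevertheless the main aldolase, at 196 FPKM against 10.7 FPKM for *Aldoc* in controls.

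Triosephosphate isomerase and glyceraldehyde-3-phosphate dehydrogenase, which complete the middle of the route, were looked up beside the 10. *Tpi1* was at 392 to 540.4 CPM in controls and 359 to 439 CPM in *Mettl3*-CKO retinas (log2 fold change -0.14, adjusted p = 0.475). *Gapdh* was at 14.6, 81.6, 15.1 and 19.0 CPM in control replicates 1 to 4 and at 16.04, 96.0, 11.2 and 16.5 CPM in *Mettl3*-CKO replicates 1 to 4. Replicate 2 of both groups was thus at least 4.30 times the next sample of its group. No other gene of the 17998 stood at least 4-fold above the other 3 replicates in replicate 2 of both groups. *Gapdh* is ordinarily among the most abundant RNAs of any cell, yet outside replicate 2 it was counted at 2.71 to 4.59 FPKM, beside 130 to 196 FPKM for *Tpi1*. A pair of named *Gapdh* pseudogenes held 7 counts in all samples together, and how reads that map to several places were counted is not given in the sources used here. The difference between groups for *Gapdh* (0.10, 95% confidence interval -1.38 to 1.58, adjusted p = 0.950) has an interval wider than that of any other enzyme shown.

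**Figure D2:**
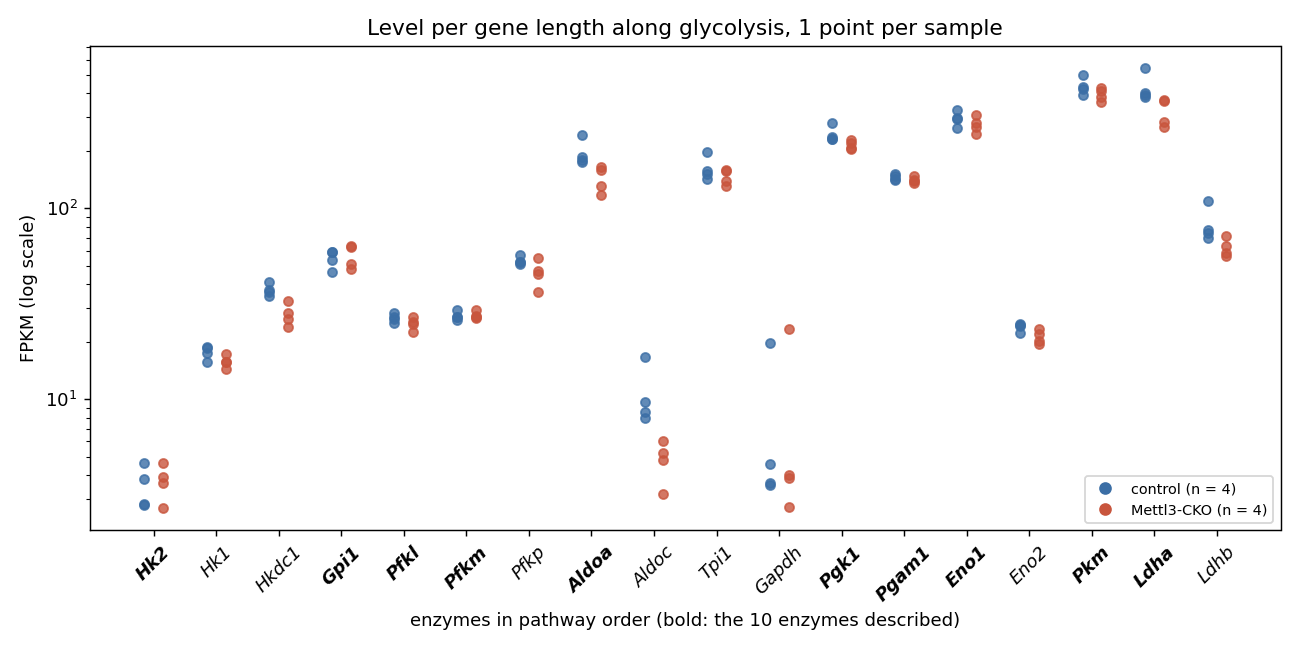
Level per gene length (FPKM, log axis) of the 10 enzymes (bold) and their isozymes or neighbours in pathway order, 1 point per sample, control blue and Mettl3-CKO red. Of the 10, Hk2 at the entry is lowest, at 3.52 FPKM in controls, and Pkm and Ldha at the exit are highest, at 437 and 431 FPKM. Levels do not climb steadily between them. The hexokinases Hk1 and Hkdc1 (17.6 and 37.2 FPKM) lie above Hk2, and Gpi1 (54.4 FPKM) lies above Pfkm and Pfkl (27.4 and 26.6 FPKM). Gapdh sits below its neighbours Tpi1 and Pgk1 in all samples, at 19.7 and 23.2 FPKM in replicate 2 of the control and Mettl3-CKO groups and lower elsewhere.

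Phosphoglycerate kinase (*Pgk1*, ENSMUSG00000062070, chromosome X, 106187100 to 106203699, plus strand) makes the first ATP of the route. It was at 625, 531, 518 and 517 CPM in control replicates 1 to 4 and at 457, 466, 514 and 496 CPM in *Mettl3*-CKO replicates 1 to 4. The groups did not overlap, but *Mettl3*-CKO replicate 3 lay just under control replicates 3 and 4, and the log2 fold change of -0.18 missed the threshold (95% confidence interval -0.37 to 0.01, adjusted p = 0.233, edgeR). Without control replicate 1 it was -0.11. Phosphoglycerate mutase (*Pgam1*, ENSMUSG00000011752, chromosome 19, 41911871 to 41918664, plus strand) moves the phosphate that remains. Its 8 values lay between 249 and 277 CPM, the tightest of the 10 with a coefficient of variation of 3.17% in controls and 3.43% in *Mettl3*-CKO retinas (log2 fold change -0.05, 95% confidence interval -0.20 to 0.11, adjusted p = 0.749). The pair of enzymes thus sat next to each other in the route with *Pgk1* lower in every *Mettl3*-CKO sample than in any control and *Pgam1* overlapping; whether their differences differ from each other was not tested.

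Enolase makes phosphoenolpyruvate. *Eno1* (ENSMUSG00000063524, chromosome 4, 150236721 to 150248879, plus strand) was at 1769, 1601, 1576 and 1422 CPM in control replicates 1 to 4 and at 1432, 1313, 1656 and 1511 CPM in *Mettl3*-CKO replicates 1 to 4. The groups overlapped, *Mettl3*-CKO replicate 3 being above 3 of the 4 controls, and the log2 fold change was -0.11 (95% confidence interval -0.32 to 0.11, adjusted p = 0.563, edgeR), or -0.05 without control replicate 1. A near-identical copy, *Eno1b*, held 2.37% as many counts; how reads shared between them were counted is not known, so the values of *Eno1* are uncertain in that respect. *Eno2*, the neuronal enolase, gave -0.17 (adjusted p = 0.235).

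Pyruvate kinase makes pyruvate and the second ATP. *Pkm* (ENSMUSG00000032294, chromosome 9, 59656368 to 59679375, plus strand) was at 2497, 2116, 2166 and 1958 CPM in control replicates 1 to 4 and at 1906, 1806, 2148 and 2073 CPM in *Mettl3*-CKO replicates 1 to 4. It was the most abundant of the 10 in both groups, and the overlapping groups gave a log2 fold change of -0.14 (95% confidence interval -0.35 to 0.08, adjusted p = 0.433, edgeR), or -0.07 without control replicate 1. The gene makes a pair of splice forms, M1 and M2, that counts per gene cannot separate.

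Lactate dehydrogenase closes the route. *Ldha* (ENSMUSG00000063229, chromosome 7, 46841475 to 46855627, plus strand), whose subunit favours the formation of lactate, was at 1801, 1326, 1306 and 1271 CPM in control replicates 1 to 4 and at 943, 880.4, 1217 and 1216 CPM in *Mettl3*-CKO replicates 1 to 4. All *Mettl3*-CKO samples were below all controls, although replicates 3 and 4 were near control replicate 4. The log2 fold change of -0.42 (standard error 0.14, 95% confidence interval -0.72 to -0.12) did not pass the threshold in edgeR (adjusted p = 0.0731). It passed in DESeq2 (adjusted p = 0.027) and in limma voom (adjusted p = 0.0477). Without control replicate 1 the edgeR value was -0.29 (adjusted p = 0.0820). *Ldhb*, the subunit that favours the return to pyruvate, was at 109.8 to 171 CPM in controls and 88.0 to 112 CPM in *Mettl3*-CKO retinas (-0.41, adjusted p = 0.0757), a size close to that of *Ldha*.

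By FPKM the order of the 10 in controls was *Pkm* (437), *Ldha* (431), *Eno1* (296), *Pgk1* (244), *Aldoa* (196), *Pgam1* (145), *Gpi1* (54.4), *Pfkm* (27.4), *Pfkl* (26.6) and *Hk2* (3.52). *Pkm* and *Ldha* were not separated by their ranges (392 to 499 and 384 to 544 FPKM), nor were *Pgk1* and *Aldoa*, whose ranges met at 230.4 to 278 and 175 to 242 FPKM. The same order held in *Mettl3*-CKO retinas, where *Aldoa* at 143 FPKM came next to *Pgam1* at 141 FPKM and their ranges (117 to 165 and 136 to 147 FPKM) overlapped. Together the 10 took 0.655% to 0.808% of all counts in controls and 0.564% to 0.686% in *Mettl3*-CKO retinas. *Mettl3*-CKO replicates 1 and 2 held the lowest shares, 0.601% and 0.564%, and replicates 3 and 4 lay within the range of the controls.

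**Figure D3:**
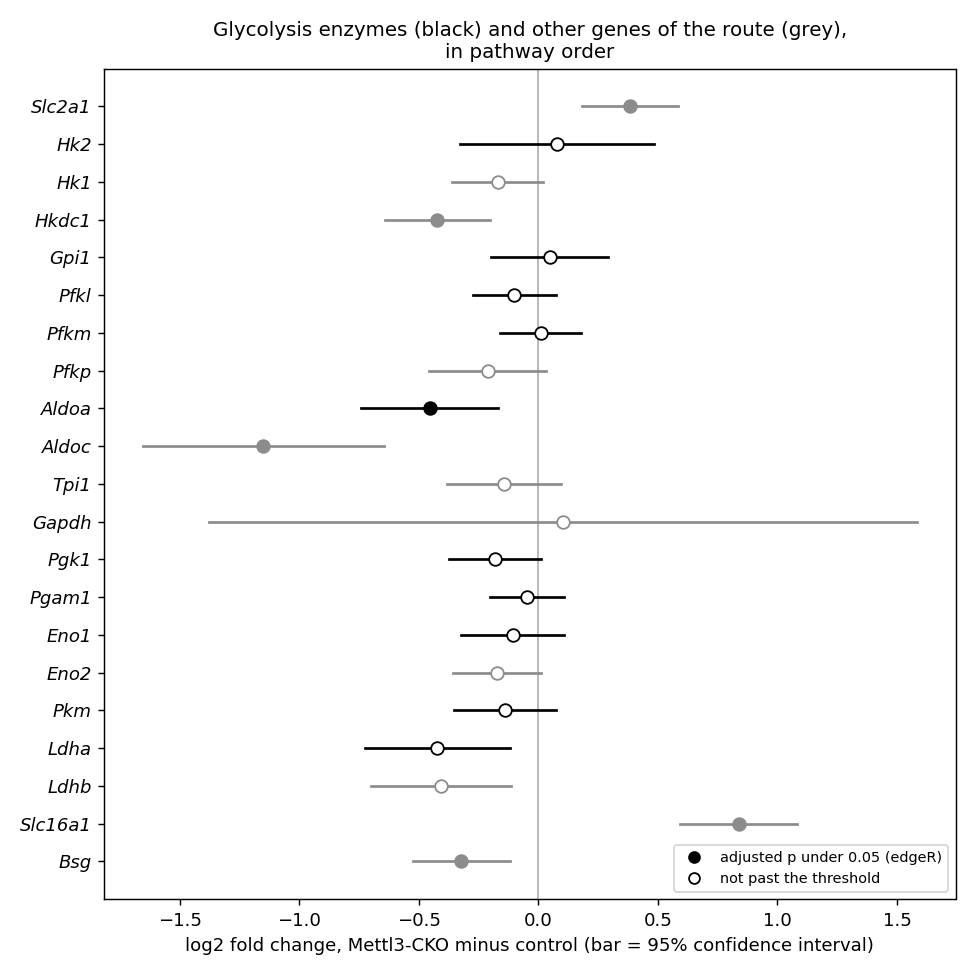
Log2 fold change (Mettl3-CKO minus control) with 95% confidence interval from edgeR for the 10 enzymes (black), their isozymes and the carriers of glucose and lactate (grey), from entry to exit of the route; filled points passed an adjusted p-value of 0.05. Of the black points Aldoa alone is filled, and the carriers Slc2a1 and Slc16a1 lie to the right of 0 while Aldoc lies farthest to the left.

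Isozyme balance was measured in each sample as the share of one form in the summed FPKM of the isozymes named with it. The shares were compared by two-sided exact permutation tests, adjusted over the 6 shares. These sums do not take in every isozyme: *Hkdc1*, at 37.2 FPKM in controls, was left out of the hexokinase sum. The share of *Aldoa* in *Aldoa* + *Aldoc* was 93.6%, 95.4%, 95.9% and 94.8% in control replicates 1 to 4 and 96.5%, 97.3%, 96.8% and 96.5% in *Mettl3*-CKO replicates 1 to 4. All *Mettl3*-CKO samples were above all controls, with means of 94.9 ± 0.997% and 96.8 ± 0.411% (SD, n = 4; exact p = 0.0286, the smallest that 4 against 4 can give, adjusted p = 0.171). The aldolase pool thus leaned further to *Aldoa* in the *Mettl3*-CKO samples even though *Aldoa* itself was lower. The difference did not pass after adjustment, but with 4 against 4 samples no share can pass unless several do. The share of *Pfkm* among the phosphofructokinases was 25.6 ± 1.25% in controls and 28.2 ± 2.21% in *Mettl3*-CKO retinas (exact permutation p = 0.0857, adjusted 0.257). Shares of *Hk2* in *Hk1* + *Hk2* (16.5 ± 2.68% and 19.0 ± 3.13%, adjusted exact p = 0.471), of *Pfkl* (24.8 ± 0.632% and 25.3 ± 0.906%, adjusted exact p = 0.48), of *Eno1* in *Eno1* + *Eno2* (92.5 ± 0.425% and 92.8 ± 0.442%, adjusted exact p = 0.471) and of *Ldha* in *Ldha* + *Ldhb* (84.0 ± 0.608% and 83.7 ± 1.29%, adjusted exact p = 0.657) overlapped between groups. In each of these sums but those of hexokinase and phosphofructokinase the described member supplied most of the RNA.

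**Figure D4:**
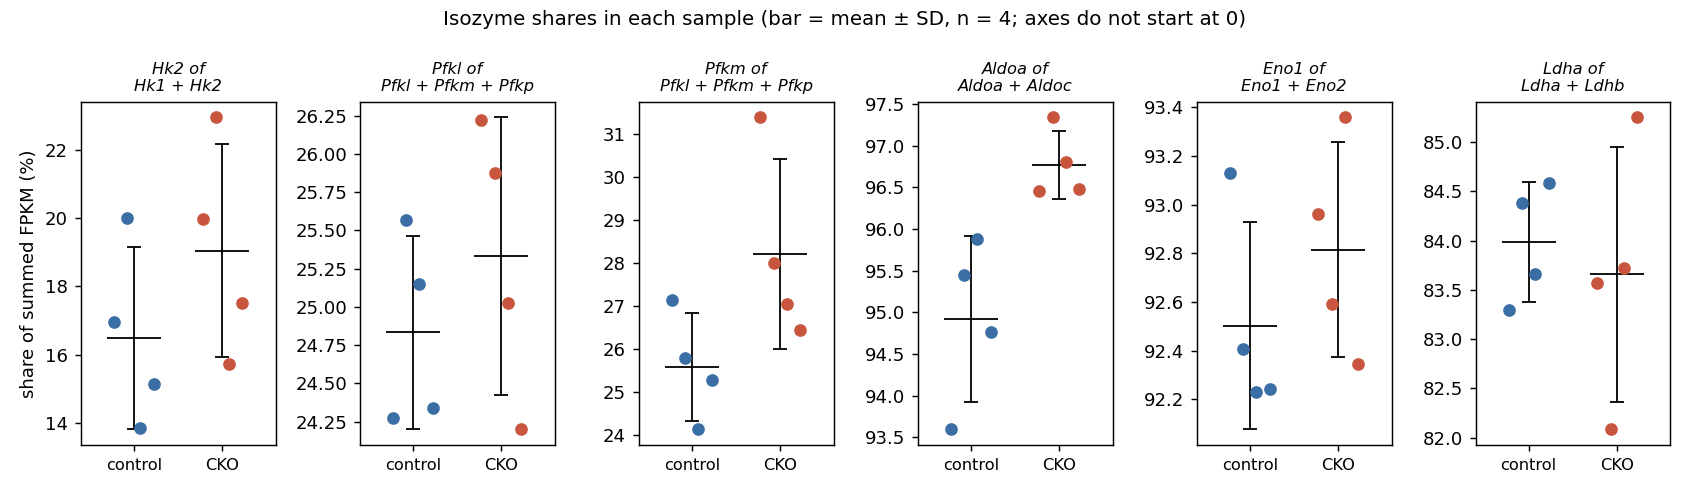
Share of each described enzyme in the summed FPKM of the isozymes named above its panel (percent, axes do not start at 0), 1 point per sample with the mean and SD of each group of 4. The share of Aldoa is higher in every Mettl3-CKO sample than in any control; the points of the other 5 shares overlap.

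Bulk counts cannot tell fewer cells of a type from less RNA per cell, and the marker levels of several cell types differed between the groups. Rod markers were lower: 7 of 12 were downregulated and 0 were called higher, and their summed level was 5166, 3674, 3294 and 3802 CPM in control replicates 1 to 4 and 1963, 1744, 2555 and 3199 CPM in *Mettl3*-CKO replicates 1 to 4. *Aldoa* followed this order within the *Mettl3*-CKO group, replicate 2 being lowest in both, then 1, 3 and 4. Within the controls replicate 1 was highest in both, but replicate 4 was second for the rod markers and lowest for *Aldoa*. *Ldha* and *Aldoc* were also lowest in *Mettl3*-CKO replicate 2 and highest in control replicate 1. Astrocyte markers had the same extremes, at 211, 110.2, 93.6 and 118 CPM in control replicates 1 to 4 and 82.3, 52.9, 75.8 and 73.2 CPM in *Mettl3*-CKO replicates 1 to 4, with 2 of 4 called lower and 0 higher. Their order in the controls was that of *Aldoc*, but not in the *Mettl3*-CKO group. There replicate 1 was highest for the astrocyte markers and replicate 4 for *Aldoc*. Photoreceptor precursor markers did not overlap either (3034 to 3444 and 2395 to 2774 CPM, 2 of 5 called lower and 0 higher), nor did those of pericytes (19.9 to 67.6 and 14.7 to 17.7 CPM, 2 of 4 tested lower and 1 higher), pigment epithelium (79.6 to 112 and 56.0 to 78.9 CPM, 4 of 7 tested lower and 1 higher) or erythrocytes (13.9 to 26.3 and 4.29 to 7.18 CPM, 2 of 3 tested lower and 0 higher). Over the 10 enzymes, control replicate 1 was the highest of the 8 samples for 6, and *Mettl3*-CKO replicate 1 or 2 was the lowest for 7. Control replicate 1 was also highest and *Mettl3*-CKO replicate 2 lowest for summed genes of the tricarboxylic acid cycle (2329 and 1775 CPM). The pentose phosphate pathway (726 and 595 CPM) and glycogen metabolism (549 and 428 CPM) had these extremes too. Glucose and lactate carriers did not, being highest in *Mettl3*-CKO replicate 1 (887 CPM). The share of all genes with these extremes was not counted. Progenitor and cell cycle markers moved the other way, at 1818 to 2274 CPM in controls and 2346 to 3061 CPM in *Mettl3*-CKO retinas, with 3 of 12 called higher and 0 lower. Müller glial markers summed to 1990 to 2522 and 2082 to 2244 CPM with 1 of 9 tested called in each direction. Beside the calls in all these marker lists, edgeR called 6.49% of all genes higher and 4.05% lower. No marker of the rod, progenitor and Müller glial lists was at 0 throughout. The part of these cell types in the differences of the enzymes was not tested.

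**Figure D5:**
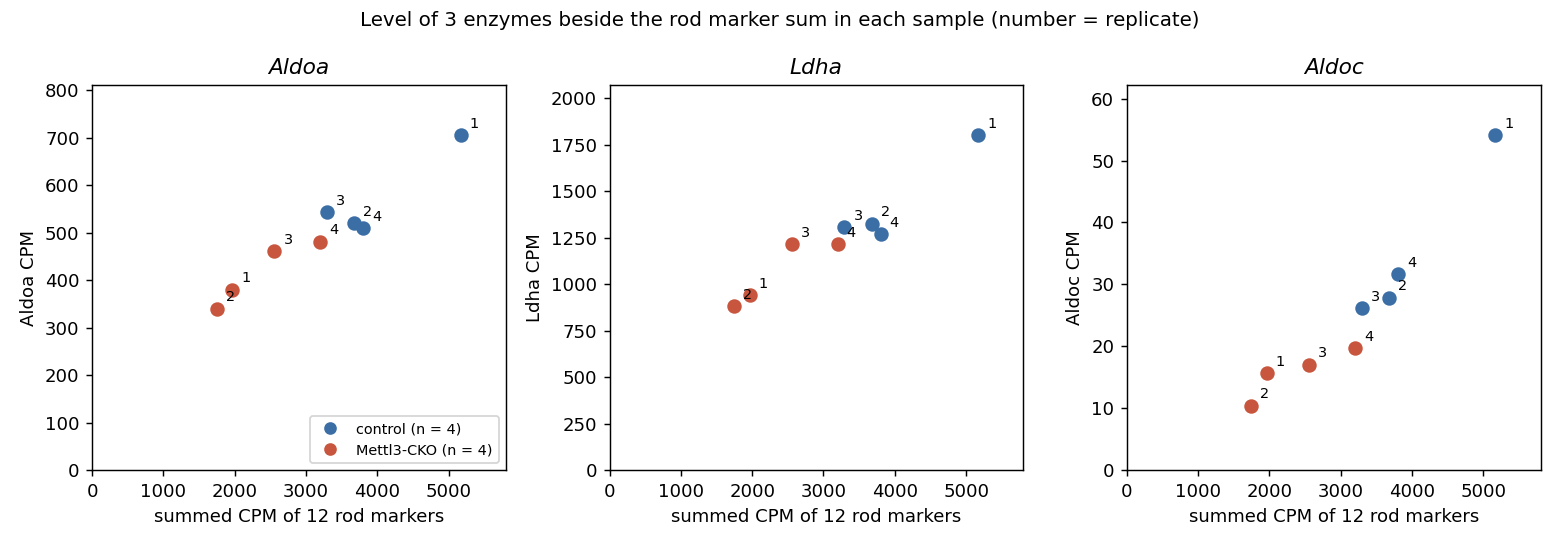
Level of Aldoa, Ldha and Aldoc (CPM) against the summed CPM of 12 rod markers in each of the 8 samples, numbered by replicate, control blue and Mettl3-CKO red, with axes from 0. In each panel control replicate 1 is at the upper right and Mettl3-CKO replicate 2 at the lower left.

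Outside the enzymes, *Slc2a1* at the entry of the route and *Slc16a1* at its exit were the only carriers that edgeR called higher. *Slc16a1*, the monocarboxylate carrier MCT1 that moves lactate and pyruvate across membranes, was at 21.0, 16.6, 15.9 and 19.0 CPM in control replicates 1 to 4 and at 36.3, 30.03, 33.1 and 30.2 CPM in *Mettl3*-CKO replicates 1 to 4. Its groups were far apart, and it rose by 0.84 ± 0.11 on the log2 scale (SE; adjusted p = 0.000983, edgeR), a call kept in all 8 fits that left out 1 sample. *Slc2a1*, the glucose carrier GLUT1, was at 333, 329, 289.9 and 281 CPM in control replicates 1 to 4 and at 448, 409, 387 and 363 CPM in *Mettl3*-CKO replicates 1 to 4. It rose by 0.38 on the log2 scale (adjusted p = 0.0217), with no overlap, and the call was lost without control replicate 3 or 4 or *Mettl3*-CKO replicate 1, with adjusted p-values of up to 0.0711. *Bsg*, the basigin that carries monocarboxylate carriers to the membrane, was instead at 299 to 369 CPM in controls and 234 to 273 CPM in *Mettl3*-CKO retinas (-0.32, adjusted p = 0.0457). Its call was kept without control replicate 1 and lost without any other sample, with adjusted p-values of 0.0628 to 0.145; without control replicates 1 and 4 together its adjusted p was 0.120. Of the 10 carriers and partners tested, 2 were called higher and 1 lower, beside 6.49% and 4.05% of all genes.

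Genes around the route were counted in the same way, in lists defined by pathway. Over all genes, edgeR called 6.49% higher and 4.05% lower, DESeq2 8.38% and 5.79%, and limma voom 11.9% and 8.71%. By unadjusted p-value under 0.05 in edgeR the shares were 13.5% higher and 11.1% lower. Among 17 of 21 other glycolytic enzymes and isozymes that passed the filter, 0 were called higher and 2 lower in edgeR (*Aldoc* and *Hkdc1*); at an unadjusted p-value under 0.05, 3 were higher and 5 lower, and DESeq2 called 2 higher and 4 lower. None of 7 flux regulators, such as the bifunctional *Pfkfb* enzymes, was called in edgeR or DESeq2, with 1 lower by unadjusted p-value, while limma voom called 1 in each direction. None of 8 enzymes of the pentose phosphate pathway was called in edgeR or DESeq2, again with 1 lower by unadjusted p-value, and limma voom called 2 higher. Glycogen metabolism gave 0 of 13 by all 3 tools, with 1 in each direction by unadjusted p-value in edgeR.

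At the fate of pyruvate, *Pdk2*, a kinase that switches off pyruvate dehydrogenase, was the 1 gene of 14 tested that edgeR called; DESeq2 called 1 higher and 1 lower, and limma voom 2 in each direction. It was at 79.2, 72.8, 82.3 and 81.2 CPM in control replicates 1 to 4 and at 45.8, 50.1, 52.4 and 59.7 CPM in *Mettl3*-CKO replicates 1 to 4, without overlap (log2 fold change -0.60, adjusted p = 0.00261, edgeR), and the call was kept in all 8 fits that left out 1 sample. *Suclg2*, a subunit of succinyl-CoA ligase, was the 1 of 16 genes of the tricarboxylic acid cycle that edgeR called (DESeq2 and limma voom each called 1 in each direction), at 13.6 to 16.7 CPM in controls and 21.6 to 24.7 CPM in *Mettl3*-CKO retinas (0.55, adjusted p = 0.00657). In the branches to serine, glycerol and alanine, 3 of 13 were called higher and 0 lower by edgeR and DESeq2, with 1 lower by unadjusted p-value in edgeR, while limma voom called 3 higher and 1 lower. Beside the counts of these lists, the shares over all genes were 6.49% higher and 4.05% lower in edgeR. They were 8.38% and 5.79% in DESeq2 and 11.9% and 8.71% in limma voom. *Gpt*, which exchanges pyruvate and alanine, rose from 5.14 to 8.13 CPM in controls to 21.9 to 32.7 CPM (log2 fold change 1.89, adjusted p = 0.000112). *Psat1* and *Shmt1*, enzymes of serine and glycine synthesis, rose by 0.47 and 0.52 on the log2 scale. *Pck2*, the mitochondrial enzyme that returns oxaloacetate to phosphoenolpyruvate, rose by 0.60 (adjusted p = 0.028), with *Pck1* and *G6pc* at 0 counts in all samples. The call for *Pck2* was lost without control replicate 2 or *Mettl3*-CKO replicate 1, 2 or 4 (adjusted p of up to 0.115) and without control replicates 1 and 4 together (adjusted p = 0.0598), and those for *Suclg2*, *Gpt*, *Psat1* and *Shmt1* were kept whichever sample was left out.

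Factors known to drive glycolytic genes, and hypoxia targets outside glycolysis, were examined beside the enzymes. Of 10 HIF1 and MYC factors, 0 were called higher and 2 lower in edgeR and in DESeq2, with 0 higher by unadjusted p-value in edgeR, and limma voom called 1 higher and 2 lower. The shares over all genes were 6.49% higher and 4.05% lower in edgeR, 8.38% and 5.79% in DESeq2, and 11.9% and 8.71% in limma voom. *Hif1a*, the oxygen-regulated subunit, was at 317 to 408 CPM in controls and 264 to 324 CPM in *Mettl3*-CKO retinas (-0.33, adjusted p = 0.048, edgeR), with overlap. That call was lost without control replicate 2 or 4 or *Mettl3*-CKO replicate 1, 3 or 4, with adjusted p-values of 0.0898 to 0.148, and without control replicates 1 and 4 together (adjusted p = 0.145). *Epas1*, its relative known from vessels, gave -0.59 (adjusted p = 0.0182), a call lost without *Mettl3*-CKO replicate 2 or 3 (adjusted p of up to 0.0572). Of 12 hypoxia targets outside glycolysis, 3 were downregulated in edgeR, beside 4.05% of all genes: *Ndrg1* (-0.73, adjusted p = 0.00288), *Mxi1* (-0.51, adjusted p = 0.0227) and *Vegfa* (-0.33, adjusted p = 0.0497). The *Ndrg1* call was kept whichever sample was left out. *Mxi1* was not called without control replicate 2 or *Mettl3*-CKO replicate 1, 3 or 4 (adjusted p of up to 0.0844), and *Vegfa* was called without control replicate 1 but not without any other sample (adjusted p of up to 0.161); it was also lost with upper-quartile scaling and with library totals alone (adjusted p of up to 0.0665). Markers of endothelium, a cell type that expresses *Epas1*, were lower as well, with 8 of 10 called lower and 0 higher. Their median log2 fold change was -1.32. Their sums, which the most abundant markers dominate, nevertheless overlapped (572 to 664 CPM in controls and 544 to 643 CPM in *Mettl3*-CKO retinas). The part of endothelium in the differences of these factors and targets was not tested.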

How the data were processed

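Expression was measured by bulk RNA-seq of the retina, and the samples were grouped by the genotype in their labels (4 control, 4 *Mettl3*-CKO). According to the methods, libraries were made with the NEBNext Ultra kit, paired-end reads were filtered and mapped to GRCm38 with Hisat2, and featureCounts counted reads per gene. The authors deposited raw counts per gene (whole numbers, not scaled to a common total) and gene lengths, which were used here for FPKM. The annotation release, the use of strand and the treatment of reads with several positions are not given in the sources used here.

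Differences were tested on these counts by edgeR 4.0.16 under R 4.3.3 (filterByExpr, TMM, glmQLFit and glmQLFTest, 17998 genes, genotype alone, Benjamini-Hochberg threshold 0.05); standard errors were derived from the log2 fold change and its F statistic. Alternatives were DESeq2 1.42.0, limma voom (limma 3.58.1), other scalings, filters and samples left out. The test was checked on simulated counts. Isozyme shares were compared in Python by exact permutation tests with scipy 1.17.1. Counting error alone sets the floor of 3 counts. Promoters are from RefSeq (GRCm38.p6), all 10 enzymes matching by symbol.

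The rule for the 10 enzymes uses gene names and no values, but the enzymes and all lists were proposed with earlier results of these data known. All 10 are named, as are their isozyme partners, *Tpi1*, *Gapdh*, *Slc2a1* and *Slc16a1* whatever their result, and genes of the other pathway lists that edgeR called. Single-cell and m6A data were not analysed here.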

Additional observations from a re-analysis of the deposited data

Results flagged for a closer look

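Among 76 groups of 4 samples examined over the enzymes and the named genes, 8 had 1 sample far from the other 3 by Dixon's test, where chance gives 3.8. Control replicate 1 was far above the other controls in 4 of them: *Aldoa* at 705 CPM (others 510.2 to 543), *Pgk1* at 625 CPM (others 517 to 531), *Ldha* at 1801 CPM (others 1271 to 1326) and *Bsg* at 369 CPM (others 299 to 307). *Gapdh* stood far above the rest in replicate 2 of both groups, at 81.6 CPM in the control (others 14.6 to 19.0) and 96.0 CPM in the *Mettl3*-CKO sample (others 11.2 to 16.5). *Eno2* was low in control replicate 4, at 105 CPM (others 114 to 116), and *Suclg2* in control replicate 3, at 13.6 CPM (others 16.5 to 16.7). What set these samples apart was not tested.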

How the results depend on the processing

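The number of the 10 enzymes called higher was 0 under every alternative run. The number called lower, 1 with edgeR, was 2 without the filter on low counts, 2 with DESeq2 and 2 with limma voom, *Ldha* joining *Aldoa*. It was 0 at an adjusted p under 0.01, 0 without control replicates 1 and 4 together, and 0 to 1 when 1 sample was left out, where the calls over all genes tested also moved, to between 509 and 1882 higher and between 185 and 1289 lower. Over all genes DESeq2 called 1476 higher and 1019 lower, and limma voom 2142 and 1568. The number called lower was 1 with the other scalings. Replicate numbers are shared by both groups, but the correlations of same-numbered samples (-0.11, 0.22, -0.11 and 0.25 for replicates 1 to 4) were over 0.1 for replicates 2 and 4 alone, and the numbers were not taken as pairs; with the replicate block the number called lower was 0 (*Aldoa* adjusted p = 0.0564; *Bsg* 0.0678 and *Hif1a* 0.0534 also lost their calls) and the number called over all genes was 1198 higher and 660 lower, against 1168 and 729 without the replicate block. Of 160 repeats of the enzymes' log2 fold changes, 139 kept direction and side of the threshold, 10 changed sign, 8 lost a call and 3 gained one. The sign changes were all of values near 0: leaving out 1 sample gave -0.0463 to 0.242 for *Hk2*, -0.0231 to 0.116 for *Gpi1* and -0.0207 to 0.0435 for *Pfkm*, and leaving out control replicates 1 and 4 gave -0.0062 for *Hk2* and -0.0036 for *Gpi1*. The difference in the share of *Pfkl* became -0.0276 percentage points without control replicates 1 and 4, and that of *Ldha* ranged from -0.856 to 0.200 percentage points with 1 sample left out. The other shares kept their sign. With 4 against 4 samples no share can pass after adjustment over 6 shares unless several do. With samples left out or with the replicate block no share can reach the threshold at all, so these repeats say nothing on their calls. The number of enzymes whose groups do not overlap was 3 or 4 throughout, and 3 with library totals alone. Most of these repeats left samples out. That cannot make separated groups overlap, apart from small changes in scaling, so those repeats say little on this number. Calls in the other pathway lists were 16 with edgeR and 23 with DESeq2. For changed signs and lost calls the cause was not tested. Counting error was small for the enzymes, whose lowest count in a sample was 275.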
